A study of Homo sapiens with 24 samples.

Results

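The genes described here encode the collagens, the laminin chains, fibronectin and the matrix metalloproteinases (MMPs) with their tissue inhibitors (TIMPs). Members were taken from the deposited table of raw counts by symbol: each row whose Ensembl identifier mapped to a protein-coding gene called COL followed by a number and an A chain, LAMA, LAMB or LAMC with a number, MMP or TIMP with a number, or *FN1*. These were 83 of the 39321 rows: *FN1*, 11 fibrillar collagens, 6 collagen IV chains, 27 other collagens, 12 laminin chains, 21 MMPs and 4 TIMPs. The last member, *MMP24OS*, entered by its name alone, since it is a gene on the strand opposite *MMP24* and no protease.

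RNA was measured in 24 poly(A) libraries of A498 and 786-O, established human lines of clear cell renal cell carcinoma, with 3 libraries in each of 4 groups per line. All cells were transfected at 20 nM, either with a non-targeting pool (Cnsi) or with a pool of siRNAs against PD-L1 (PD-L1si), and after 24 hours they stayed untreated or received IFNγ at 50 ng/mL for another 24 hours (Cnsi IFNγ and PD-L1si IFNγ). The labels speak of a knockout where the treatment protocol describes this transient silencing, and no group was left untransfected. The study's methods list 3 groups for RNA sequencing, without PD-L1si alone, whereas the sample titles give all 4, which are used here. Both lines are named as the labels name them, and the names may have been exchanged between the 2 sets of libraries. Whether they were was not tested here, so a statement about a line holds for the libraries with that label. The sets were also run on different sequencers, a NovaSeq for A498 and a NextSeq for 786-O, so line and instrument cannot be told apart.

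Fibrillar collagens form the fibers of interstitial tissue, whereas collagen IV and the laminins, each laminin a trimer of an α, a β and a γ chain, build the basement membrane on which renal tubule cells rest. Fibronectin links this matrix to integrins on the cell surface. MMPs cleave matrix proteins, either as secreted enzymes or anchored to the membrane, and TIMPs block them. IFNγ induces PD-L1, which is encoded by *CD274*.

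Library totals ran from 19256316 to 30350461 counts, and the members took 0.914 to 1.42% of a library. Levels are given as normalized CPM, the counts of a library scaled to a common size within its line, and a gene is called higher or lower when the quasi-likelihood test of edgeR, with Benjamini-Hochberg adjustment over all genes tested, gave an adjusted p under 0.05 and the log2 fold change exceeded 0.5 in size. The siRNA target responded as labelled: *CD274* was at 3.99 to 5.74 CPM in Cnsi, 191 to 199 in Cnsi IFNγ, 0.810 to 1.01 in PD-L1si and 26.9 to 28.5 in PD-L1si IFNγ for A498. In 786-O *CD274* was at 3.87 to 4.18, 55.7 to 65.8, 1.21 to 1.90 and 30.6 to 32.7 CPM in the same order. The transcription factor gene *IRF1*, a known IFNγ target, was higher with IFNγ in Cnsi cells of both lines (log2 fold change 4.62 and 4.77).

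Some values need care. In the 786-O libraries 1475 rows with over 1000 counts in A498 are listed at 0 throughout. Of those matched to an annotation, 98.7% carry another identifier version than GENCODE 44, against 29.0% of the rows with over 1000 counts in both lines. *COL4A5* is the member among these rows. *COL1A1*, *COL1A2*, *COL3A1*, *LAMA2* and *TIMP3*, with 19 to 514 counts over the A498 libraries, are also listed at 0 in 786-O and carry another version, and these 6 members are described in A498 only. *COL20A1* and *COL6A5* are listed at 0 in A498 and also carry another version, and *MMP27*, *COL19A1* and *MMP8*, listed at 0 in 1 line, had at most 27 counts in the other.

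One library stood apart in the members. In 786-O Cnsi IFNγ replicate 1, 17 of the 28 members at 10 CPM or more lay over 0.2 log2 units below the mean of the other replicates, with a median difference of -0.30. Among 9188 other genes at that level 14.4% did so, with a median of -0.04. *COL5A1* was at 298 CPM there against 625 and 589, and *COL4A1* at 496 against 926 and 873. A value that changes its call or direction, or moves by over 1.5 times, without this library is given both ways.

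The summed level of 8 renal and clear cell carcinoma markers was 3690 to 6405 CPM, and a sum does not by itself show the identity of the cells. It was 4379 to 4557 CPM in Cnsi and 5568 to 5647 in Cnsi IFNγ for A498. In 786-O it was 3690 to 3934 CPM in Cnsi and 5935 to 6405 in Cnsi IFNγ. *PAX8* was present in both lines. *PAX2* and *CDH2* were tested in A498 but listed at 0 in 786-O, which, given the rows described above, is not read as absence of their RNA. The summed level of 6 stromal markers was 17.2 to 42.6 CPM. It moved with IFNγ, from 19.4 to 20.7 CPM in Cnsi to 27.6 to 32.8 in Cnsi IFNγ for A498 and from 26.8 to 27.9 to 17.2 to 17.5 for 786-O, most of it *ACTA2*, whose mean went from 13.9 to 29.4 and from 26.1 to 16.8 CPM. Of the 4 tested in A498, *ACTA2* was higher (1.08) and *LUM* and *THY1* lower (-2.47 and -2.21), and the median was -1.03. Of the 3 tested in 786-O, *ACTA2* and *PDGFRB* were lower (-0.64 and -1.19). The part of the stromal markers in the results was not tested. *DCN*, the defining fibroblast proteoglycan, had a group mean of at most 0.0352 CPM. The 4 endothelial markers summed to at most 0.0776 CPM in A498, and in 786-O to 0.107 to 0.256 CPM in Cnsi and 0.896 to 1.11 in Cnsi IFNγ. The 2 of 4 leukocyte markers with a row summed to at most 1.75 CPM in any library.

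The members differed widely in level between the lines. Per kilobase of exon (CPM divided by the exon length), *FN1* was the most abundant member in A498 Cnsi, at 171 ± 5.04 (SD, n = 3), followed by the membrane-anchored collagenase *MMP14* at 126 ± 1.61, the laminin γ chain *LAMC1* at 99.2 ± 0.768 and *COL18A1*, the source of endostatin, at 97.9 ± 0.449. *LAMC1* and *COL18A1* differed by about the sum of their SDs, whereas *FN1* stood clear of every other member. In 786-O Cnsi the order began with *MMP7*, the secreted matrilysin, at 125 ± 4.50, then *TIMP2* at 103 ± 2.72, *COL6A2* at 96.5 ± 3.25 and *TIMP1* at 94.5 ± 1.63, of which the last 2 lay within their spread. *FN1* was at 37.3 ± 0.605 there. Chains that share a trimer were not at equal levels: *LAMA3* and *LAMB3*, chains of laminin-332, were at 21.6 ± 1.29 and 9.77 ± 0.569 in A498, but at 13.4 ± 0.213 and 32.6 ± 0.978 in 786-O. The collagen VI chains *COL6A1*, *COL6A2* and *COL6A3* were at 8.23 ± 0.118, 19.2 ± 0.898 and 2.92 ± 0.168 in A498, and at 71.8 ± 0.936, 96.5 ± 3.25 and 0.0132 ± 0.00529 in 786-O. These levels were normalized within each line and were not tested between lines. The exon length counts every annotated exon of a gene over all its transcripts, so it can exceed that of the RNA present. Both the order and the ratios between chains depend on it. In 786-O Cnsi *COL4A2* (19.3 kilobases) was at 1053 to 1091 CPM, above *MMP7* (2.32 kilobases) at 280 to 301 CPM.

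**Figure D1:**
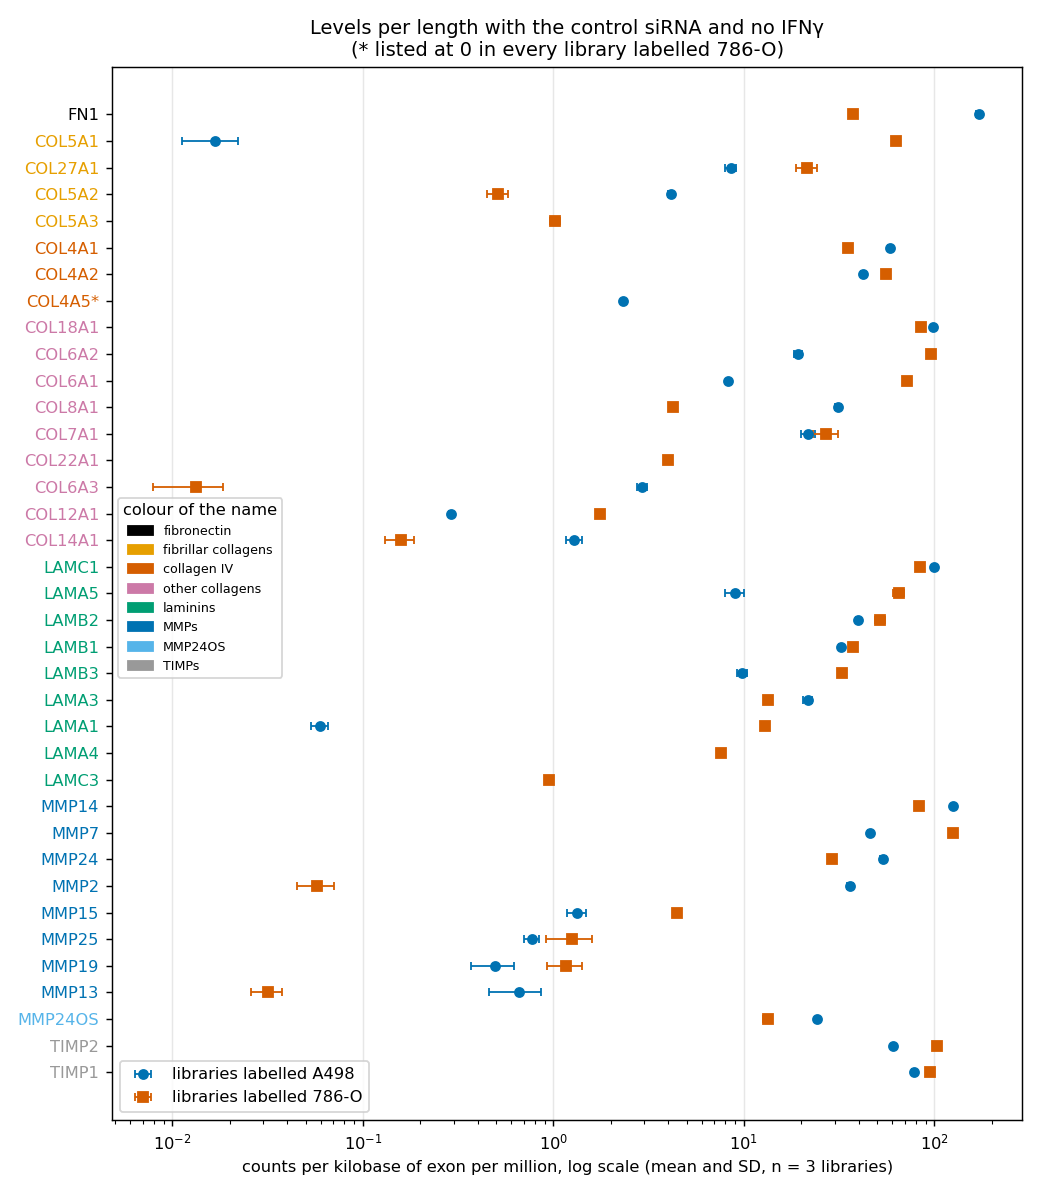
Level of 37 members with at least 0.5 CPM per kilobase of exon in Cnsi libraries of either line (log axis, mean and SD, n = 3), grouped by role; means under 0.01 are not drawn. On this scale *FN1* is the highest member in A498 and *MMP7* in 786-O. *LAMA1*, *LAMA4*, *COL5A1* and *COL22A1* are high only in 786-O and *MMP2* and *COL6A3* only in A498.

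RefSeq promoter windows (GRCh38.p14, 250 bases before to 50 after the gene's start) were at hand for 57 of the 83 members. They are shown for 4 members whose values are followed below: *FN1*, called higher with IFNγ in both lines, *MMP24*, called lower in both, *MMP7*, called lower in A498 and higher in 786-O, and *COL4A1*, whose window shares 226 of its 300 bases with that of *COL4A2* on the opposite strand. Capitals mark a match to the AP-1 motif TGANTCA, and the other windows hold none of the motifs searched.
*FN1*, chr2:215436019-215436318, minus strand: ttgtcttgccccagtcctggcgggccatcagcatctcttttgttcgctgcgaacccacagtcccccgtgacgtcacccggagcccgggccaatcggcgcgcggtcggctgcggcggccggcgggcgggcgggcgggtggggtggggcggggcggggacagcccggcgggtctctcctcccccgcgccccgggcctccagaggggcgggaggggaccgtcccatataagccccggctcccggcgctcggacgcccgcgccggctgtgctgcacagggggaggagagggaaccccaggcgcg
*MMP24*, chr20:35226440-35226739, plus strand: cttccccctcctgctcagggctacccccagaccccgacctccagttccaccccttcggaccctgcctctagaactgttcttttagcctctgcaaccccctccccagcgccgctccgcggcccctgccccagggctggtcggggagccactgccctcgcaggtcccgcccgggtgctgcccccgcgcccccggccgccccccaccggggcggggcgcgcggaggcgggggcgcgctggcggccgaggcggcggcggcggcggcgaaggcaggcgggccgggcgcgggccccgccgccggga
*MMP7*, chr11:102530698-102530997, minus strand: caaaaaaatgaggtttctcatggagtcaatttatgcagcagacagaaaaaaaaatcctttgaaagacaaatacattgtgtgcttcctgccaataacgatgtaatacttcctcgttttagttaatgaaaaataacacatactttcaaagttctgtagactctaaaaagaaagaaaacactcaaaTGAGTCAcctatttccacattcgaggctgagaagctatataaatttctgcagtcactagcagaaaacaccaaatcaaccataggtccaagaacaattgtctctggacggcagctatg
*COL4A1*, chr13:110307108-110307407, minus strand: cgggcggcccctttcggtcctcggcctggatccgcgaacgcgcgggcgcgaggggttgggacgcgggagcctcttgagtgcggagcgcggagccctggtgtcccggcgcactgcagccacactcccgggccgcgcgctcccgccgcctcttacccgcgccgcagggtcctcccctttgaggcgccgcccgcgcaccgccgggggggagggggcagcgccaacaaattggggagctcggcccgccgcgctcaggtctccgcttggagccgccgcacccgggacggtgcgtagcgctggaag
The motifs were searched on both strands. The IFNγ-activated site TTCNNNGAA was held by 7.88% of the 27305 promoters and by 2 of the 57 member promoters (*COL7A1* and *LAMB2*). The AP-1 site TGANTCA was held by 7.76% and by 4 members (*LAMA3*, *MMP7*, *MMP10* and *MMP20*). For NF-κB a fixed sequence with no variable base was searched, held by 0.194% and by 0 members. Other forms of the NF-κB site were not searched, so these values do not show that member promoters lack it. In *MMP7* the AP-1 match ends 61 bases before the start. G and C made up 76.7% of the *FN1* window, 80.0% of that of *MMP24*, 76.7% of that of *COL4A1* and 35.7% of that of *MMP7*.

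The first comparison asks what IFNγ did to these genes in cells with the control siRNA. *FN1* and *MMP25* were higher with IFNγ in both lines, *MMP24* and *MMP15*, both membrane-type MMPs, were lower in both, and *MMP7* and *COL8A1* were lower in A498 and higher in 786-O. In A498, 59 members passed the filter on low counts, of which 8 were called higher and 24 lower (13.6% and 40.7%), while 18.2% of all genes tested were called higher and 18.5% lower (36.8% in all). In 786-O, 63 members passed, with 11 higher and 7 lower (17.5% and 11.1%), beside 11.1% and 7.39% of all genes (18.5% in all). The members' median log2 fold change was -0.31 in A498 and 0.01 in 786-O, and that of all genes -0.03 and 0.00. Of the 51 members tested in both lines, 12 were called in both, 2 of them higher, 6 lower and 4 in opposite directions (23.5% in all, with 3.92%, 11.8% and 7.84%). Of the 17999 genes tested in both, 11.2% were called in both, 6.41% higher, 3.59% lower and 1.18% in opposite directions. Members that passed the filter through a single group had to differ, so these counts are descriptive. A fall in the number of cells of one kind and a fall of RNA per cell cannot be told apart in bulk RNA.

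**Figure D2:**
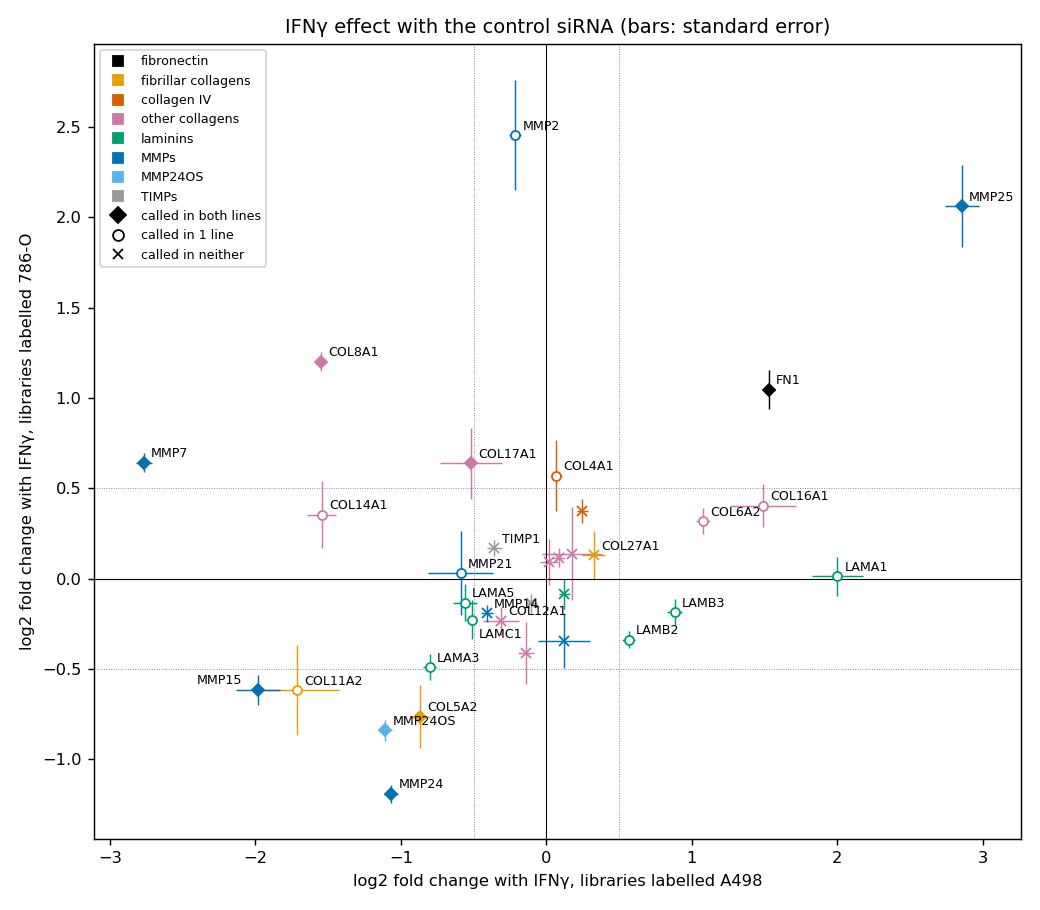
IFNγ effect in Cnsi cells for the 34 members that were tested in A498 and in 786-O and averaged 1 CPM or more in a compared group of each (log2 fold change, bars SE, 3 libraries per group; dotted lines at 0.5). *FN1* and *MMP25* lie at the upper right, *MMP24*, *MMP15* and *COL5A2* at the lower left, and *MMP7* and *COL8A1* at the upper left, where the direction is opposite.

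*FN1* encodes fibronectin (chr2:215360440-215436073, minus strand, GRCh38). In A498 it was at 2847, 2956 and 3018 CPM in Cnsi and at 8422, 8539 and 8507 in Cnsi IFNγ, and it rose 2.89-fold (log2 fold change 1.53, SE 0.0395, adjusted p = 9.62e-28). In 786-O it was at 652, 642 and 631 CPM in Cnsi and at 1064, 1537 and 1377 in Cnsi IFNγ, a 2.07-fold rise (1.05, SE 0.107, adjusted p = 1.42e-05). The groups did not overlap in either line, and the lowest treated library of 786-O was the one that stood apart. Without it the change was 1.18. With PD-L1si *FN1* also rose, from 2569, 2362 and 2382 to 6389, 5965 and 6240.1 CPM in A498 (1.35) and from 570.2, 562 and 577 to 1006, 1047 and 1131 in 786-O (0.90). The difference between the lines in Cnsi cells, -0.49, had an adjusted p of 0.000942 but was just under the fold threshold. It passed when any 1 of 8 libraries was left out and ran from -0.61 to -0.36 over the 24 that were each left out.

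Fibrillar collagens were mostly low. In A498, 4 of the 8 tested were lower with IFNγ and 0 higher (median -0.93), beside 18.5% and 18.2% of all genes. *COL5A2*, a minor chain of collagen V fibers, fell from 29.3, 30.5 and 30.9 to 15.9, 16.6 and 17.4 CPM (-0.87, SE 0.0627, adjusted p = 1.62e-14). In 786-O it was at 3.71, 3.29 and 4.25 and fell to 1.5, 2.22 and 2.96 CPM (-0.76, SE 0.176, adjusted p = 0.00106), or by 0.54 on the log2 scale without Cnsi IFNγ replicate 1. Every treated library of each line was below every control library. *COL1A1*, the main chain of collagen I, was at 2.07, 1.83 and 2.23 CPM in A498 and fell to 0.755, 0.776 and 0.722 (-1.44, SE 0.213), and *COL11A2* and *COL11A1*, chains of the cartilage collagen XI, fell by 1.71 and 2.31. *COL5A2* was the single fibrillar collagen of the 6 tested in 786-O to be called (16.7%, beside 18.5% of all genes). *COL5A1*, by far its most abundant fibrillar collagen at 710.0, 699.8 and 701 CPM, was at 298, 625 and 589 with IFNγ and did not pass (-0.48, adjusted p = 0.142). Without the library that stood apart the value was -0.21 (adjusted p = 0.000136), still under the fold threshold.

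Collagen IV is the scaffold of basement membranes, and *COL4A1* and *COL4A2*, transcribed in opposite directions from neighboring starts, held most of its RNA. *COL4A1* was at 833, 869 and 858 CPM in A498 Cnsi and 898, 884 and 904 in Cnsi IFNγ (0.07, adjusted p = 0.108). In 786-O it was at 501 to 533 CPM in Cnsi and at 496, 926 and 873 in Cnsi IFNγ, where the groups overlap. Its call as higher there (0.57, SE 0.196, adjusted p = 0.0492) was lost when any 1 of 11 other libraries was left out, and the value ran from 0.41 to 0.81, the latter without the library that stood apart. *COL4A2* was at 795 to 834 CPM in A498 Cnsi and 929 to 996 in Cnsi IFNγ (0.25), and at 1053 to 1091 and 1191 to 1517 in 786-O (0.37). Both values had adjusted p under 0.05 with groups that do not overlap, below the fold threshold.

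*COL4A5*, an X-linked chain, behaved differently. It was at 27.9, 27.2 and 27.5 CPM in A498 Cnsi and at 8.09, 9.73 and 9.09 in Cnsi IFNγ, so that it fell 3.06-fold (-1.61, SE 0.0772, adjusted p = 1.21e-19), and with PD-L1si it fell by the same 1.61. The remaining chains were near the detection limit. *COL4A4* in 786-O fell from 1.25, 1.79 and 1.13 to 0.717, 0.999 and 0.709 CPM (-0.77), a call lost without Cnsi replicate 2 or Cnsi IFNγ replicate 1 or 3 (-0.56, -0.68 and -0.69). In PD-L1si cells of 786-O it fell from 2.67, 1.87 and 2.20 to 0.575, 0.793 and 0.541 CPM (-1.80), and *COL4A3* and *COL4A6* fell by 1.13 and 1.54 on the log2 scale, the former without its call when PD-L1si IFNγ replicate 1 was left out (-0.94). In A498 *COL4A3*, *COL4A4* and *COL4A6* stayed under 0.5 CPM in every library.

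Among the other collagens, 8 of 15 tested in A498 were called, 2 of them higher, and 5 of 21 in 786-O, 4 of them higher. These shares are 53.3% and 23.8%, beside 36.8% and 18.5% of all genes. *COL8A1*, a short-chain collagen of vessel walls, went from 301, 296 and 281 to 98.3, 104 and 97.6 CPM in A498, a 2.93-fold fall (-1.55, SE 0.0415, adjusted p = 3.1e-27). In 786-O it went from 40.0, 40.5 and 39.0 to 96.1, 90.2 and 88.5 CPM, a 2.30-fold rise (1.20, SE 0.0533, adjusted p = 6e-16). All treated libraries of A498 lay below their controls, and all treated libraries of 786-O above theirs. The difference between the lines was 2.74 (SE 0.0668, adjusted p = 4.07e-30).

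*COL14A1*, a collagen that binds fibril surfaces, fell from 13.5, 14.2 and 11.8 to 4.32, 4.38 and 4.86 CPM in A498 (-1.54), and was at 1.41, 1.5 and 1.92 against 1.90, 1.96 and 2.32 in 786-O (0.35, not called). The lines differed by 1.89 (adjusted p = 2.19e-10). Of the collagens that rose in A498, *COL6A2* went from 97, 106 and 103 to 228, 201 and 219 CPM (1.08) and *COL16A1* from 0.558, 0.557 and 0.877 to 2.05, 1.67 and 1.92 (1.49). In 786-O both were above their controls by 0.32 and 0.40 without being called, and the differences between the lines were -0.77 and -1.10. *COL20A1*, listed at 0 in A498, rose in 786-O from 0.703, 0.822 and 0.480 to 2.47, 1.70 and 2.09 CPM (1.64, adjusted p = 3.72e-06). *COL13A1*, a transmembrane collagen, fell in both lines (-2.51 and -1.76), from at most 0.199 CPM in A498, where the value ran from -2.91 to -1.93 with each library left out and the call was lost without Cnsi IFNγ replicate 2, and from 1.18 to 1.41 CPM in 786-O.

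The scarcest collagen calls rest on few reads. *COL21A1* had 0 counts in the A498 Cnsi IFNγ libraries and 14 in Cnsi, so it was at least 4.36-fold lower against a floor of 3 counts over the group, while in 786-O it went from 0 to 0.0639 CPM up to 0.158 to 0.430 (3.15). *COL28A1* fell by 1.52 in A498. *COL17A1*, the collagen of hemidesmosomes, was called lower in A498 (-0.52) and higher in 786-O (0.64). Its A498 call was lost without any 1 of 7 libraries, with values from -0.54 to -0.40, and its 786-O call without Cnsi replicate 2 or Cnsi IFNγ replicate 3 (0.56 and 0.52).

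Laminin chains moved in both directions in A498, with 3 of 11 higher and 4 lower (27.3% and 36.4%, beside 18.2% and 18.5% of all genes). In 786-O 1 of 11 was called (9.09%, beside 18.5%). *LAMA1*, the α chain of embryonic laminin, rose in A498 from 1.04, 0.954 and 0.837 to 3.98, 3.84 and 3.51 CPM (2.00, SE 0.174, adjusted p = 2.1e-12), whereas in 786-O, where it was abundant, it was at 208, 201 and 204 against 164, 239.8 and 215 (0.01, adjusted p = 0.942, or 0.16 and not called without Cnsi IFNγ replicate 1). The lines differed by -1.997 (adjusted p = 3.42e-06).

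*LAMA3* and *LAMB3*, chains of laminin-332, the anchor of epithelial cells, moved in opposite directions in A498. *LAMA3* fell in A498 from 299.8, 305 and 334 to 178, 184 and 176 CPM (-0.80, SE 0.0440), and *LAMB3* rose from 42.3, 47.0 and 46.9 to 83.3, 80.7 and 87.5 (0.88, SE 0.0518, adjusted p = 4.52e-17). In 786-O *LAMA3* was at 198, 192 and 192 against 116, 155 and 143 (-0.49) and *LAMB3* at 152, 147 and 156 against 111, 146 and 143 (-0.18, adjusted p = 0.0528, or -0.07 without Cnsi IFNγ replicate 1), so neither was called. The *LAMB3* effect differed between the lines by -1.07 (adjusted p = 6.02e-12).

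Of the laminin-511 chains, which line renal tubules, *LAMA5* fell in A498 from 118, 123 and 144 to 85.1, 85.5 and 90.3 CPM (-0.56, or -0.46 and not called without Cnsi replicate 3). *LAMC1* fell from 832, 845 and 836 to 588, 599 and 576 (-0.51, between -0.52 and -0.49 with each library left out). It is the shared γ chain, and its value lies at the fold threshold, so the call was lost without Cnsi IFNγ replicate 3 or any PD-L1si library. The *LAMC1* call was also lost with DESeq2, with the scaling of that tool in edgeR and with only the groups compared (-0.498 each). *LAMB1* was at 591 to 608 against 642 to 664 CPM (0.12). *LAMB2*, a β chain of the glomerular membrane, rose in A498 from 268, 269.8 and 277 to 413, 383 and 410.3 (0.57), but in 786-O went from 371, 365 and 334 to 274, 284 and 289.6 (-0.34, not called), a difference of -0.91 between the lines (adjusted p = 6.52e-15). *LAMB4* fell in both lines: it had 27 counts in A498 Cnsi and 0 in Cnsi IFNγ, at least 8.42-fold lower, and in 786-O it went from 0.927, 1.18 and 0.892 to 0.573, 0.259 and 0.394 CPM (-1.27). The only laminin called higher with IFNγ in 786-O was *LAMA4*, an endothelial chain, in PD-L1si cells (0.69).

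MMPs were mostly lower in A498, with 8 of 14 lower and 1 higher (57.1% and 7.14%, beside 18.5% and 18.2% of all genes). In 786-O 5 of 16 were higher and 2 lower (31.25% and 12.5%, beside 11.1% and 7.39%). *MMP25*, a leukocyte-type MMP anchored by a lipid, showed the largest rise among members over 1 CPM in A498. It went from 3.35, 3.58 and 4.03 to 27.2, 24.4 and 27.9 CPM there (2.86, SE 0.117, adjusted p = 1.41e-18) and from 7.07, 6.72 and 4.11 to 25.7, 21.5 and 27.8 in 786-O (2.06, SE 0.229, adjusted p = 6.38e-05). No library of a treated group came near a control library, and with PD-L1si the changes were 3.07 and 2.18. *MMP24*, a membrane-type MMP of neurons, fell from 244, 232 and 228 to 107, 119 and 110.2 CPM in A498 (-1.07, SE 0.0490, adjusted p = 4.33e-20) and from 128, 121 and 131 to 58.8, 53.9 and 54.0 in 786-O (-1.19, SE 0.0502, adjusted p = 2.07e-16). The difference between the lines was -0.13 (adjusted p = 0.152). *MMP24OS*, whose span encloses *MMP24* on the other strand (chr20:35201745-35278131 against chr20:35226690-35276998, GRCh38), fell too (-1.11 and -0.84), with reads that the authors assigned by strand.

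*MMP7*, the matrilysin of epithelial cells, fell in A498 from 105, 109.6 and 105 to 14.8, 16.4 and 15.6 CPM, a 6.81-fold change (-2.77, SE 0.0535, adjusted p = 1.12e-31). In 786-O it rose 1.56-fold, from 291, 280.4 and 301 to 491, 439 and 433 CPM (0.64, SE 0.0519, adjusted p = 1.3e-10). The groups were apart in both lines, and the lines differed by 3.40 (SE 0.0754, adjusted p = 3.4e-31). *MMP2*, the gelatinase A gene, was abundant in A498, at 164, 177 and 168 against 151, 145 and 143 CPM (-0.21, not called), and rose in 786-O from 0.288, 0.322 and 0.206 to 1.22, 1.66 and 1.65 CPM (2.46, SE 0.304). This difference was 2.66 (adjusted p = 2.11e-11), at levels far apart.

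*MMP15*, another membrane-type MMP, fell in A498 from 5.02, 6.28 and 5.58 to 1.68, 1.24 and 1.35 CPM (-1.98) and in 786-O from 18.3, 19.6 and 18.7 to 11.9, 13.5 and 11.5 (-0.61), a difference of 1.36 (adjusted p = 9.51e-09). The collagenase genes *MMP13* and *MMP1* fell in A498, the former from 2.31, 2.07 and 1.24 to 0.0419, 0.271 and 0.385 CPM (-3.01) and the latter from 1.16, 1.35 and 0.837 to 0.293, 0.388 and 0.241 (-1.82). *MMP11*, *MMP16* and *MMP21* also fell there (-1.11, -1.92 and -0.59), *MMP21* without its call when Cnsi replicate 2 or Cnsi IFNγ replicate 3 was left out (-0.53 and -0.48). *MMP14* was at 574, 587 and 586 against 457, 410.1 and 448 CPM in A498 (-0.41) and at 379.9, 373 and 395 against 310.4, 351 and 345 in 786-O (-0.19), lower in every library but under the fold threshold. *MMP17* and *MMP20* had 0 counts in 786-O Cnsi and 17 and 12 in Cnsi IFNγ, at least 6.24-fold and 4.40-fold higher. *MMP9*, gelatinase B, did not pass in either line (0.16 and 0.33).

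The inhibitors changed little. *TIMP1* was at 113, 109.6 and 115 CPM in A498 Cnsi and 91.0, 84.5 and 88.0 in Cnsi IFNγ (-0.36, adjusted p = 2.16e-07), and at 136, 135 and 139 against 156, 156 and 149.7 in 786-O (0.17, adjusted p = 0.00331). These shifts were under the fold threshold in both lines, yet opposite in direction, and the difference of 0.52 passed (adjusted p = 5.97e-08). This difference did not pass with DESeq2 or the scaling of that tool in edgeR (0.47 each), without the filter (0.45) or with protein-coding genes only (0.498). *TIMP2*, which also helps to activate pro-MMP2, was at 371, 380.4 and 376 against 359.6, 340.4 and 349.8 in A498 (-0.10) and at 642, 622 and 655 against 525, 613 and 608 in 786-O (-0.14, or -0.07 without Cnsi IFNγ replicate 1). *TIMP4* was called higher in A498 from 0.598, 0.278 and 0.359 to 0.755, 0.814 and 0.770 CPM (0.92, adjusted p = 0.0202), a call lost without Cnsi replicate 2, Cnsi replicate 3 or Cnsi IFNγ replicate 2 (0.70, 0.83 and 0.88). *TIMP3* was under the filter in A498.

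**Figure D3:**
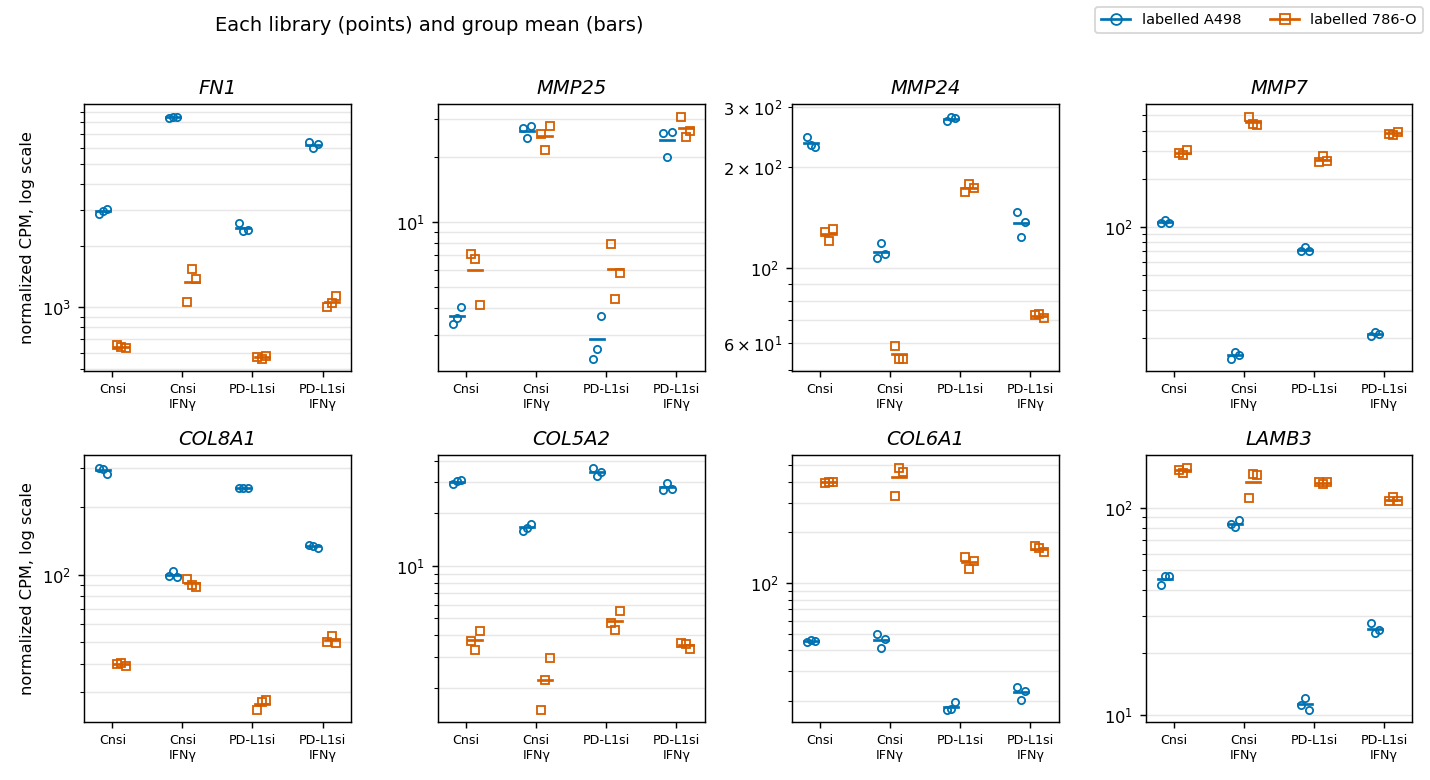
Normalized CPM of 8 members in each library (points; circles A498, squares 786-O; log axes, bars mark group means, n = 3). *FN1* and *MMP25* rise and *MMP24* falls with IFNγ in both lines, *MMP7* and *COL8A1* move in opposite directions, *COL6A1* is lower with PD-L1si in both, and *LAMB3* is lower with PD-L1si in A498.

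IFNγ was also compared with none in PD-L1si cells, where 8 members were called higher and 20 lower in A498 (13.6% and 33.9%, beside 17.6% and 15.9% of all genes, 33.5% in all) and 13 higher and 11 lower in 786-O (20.6% and 17.5%, beside 11% and 7.45%, 18.4% in all). *COL16A1*, *LAMA1*, *LAMB3* and *COL6A2* were again higher in A498 (1.88, 1.67, 1.21 and 0.95), as was *LAMB2* (0.72), and *COL27A1*, a fibrillar collagen, was called here (0.56). *COL11A1* fell from 1.16, 0.969 and 1.21 to 0.0436, 0.105 and 0.0969 CPM there (-3.72). In 786-O the higher members included *MMP2* (2.96), *COL20A1* (1.39), *COL14A1* (1.06), *COL24A1* (0.93) and *COL22A1* (0.62), and the lower ones *MMP11* (-1.24), *MMP28* (-1.33) and *LAMA3* (-0.56). *MMP7* rose by 0.55 in 786-O, or by 0.48 and without a call when PD-L1si replicate 1 was left out. This comparison has no library in common with the one in Cnsi cells.

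The next comparisons ask what silencing PD-L1 changed, under IFNγ and without it. *COL6A1* was lower with PD-L1si in both lines and both conditions, *LAMB3* was lower in A498 in both conditions, and *COL5A2* was higher under IFNγ in both lines. The *COL5A2* call in 786-O was lost without Cnsi IFNγ replicate 1 (0.45). Its fall with IFNγ in Cnsi cells, given above, rests on the same Cnsi IFNγ libraries. Under IFNγ, 3 members were called higher and 6 lower in A498, beside 4.36% and 5.75% of all genes, 10.1% in all (5.08% and 10.2% of the 59 tested), and 4 higher and 2 lower in 786-O, beside 1.29% and 1.74%, 3.03% in all (6.35% and 3.17% of 63). Without IFNγ, 3 were higher and 8 lower in A498, beside 2.87% and 5.6% (8.48% in all), and 2 higher and 3 lower in 786-O, beside 1.19% and 1.63% (2.81% in all). A pool of siRNAs was used throughout, with no group in which PD-L1 was restored.

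**Figure D4:**
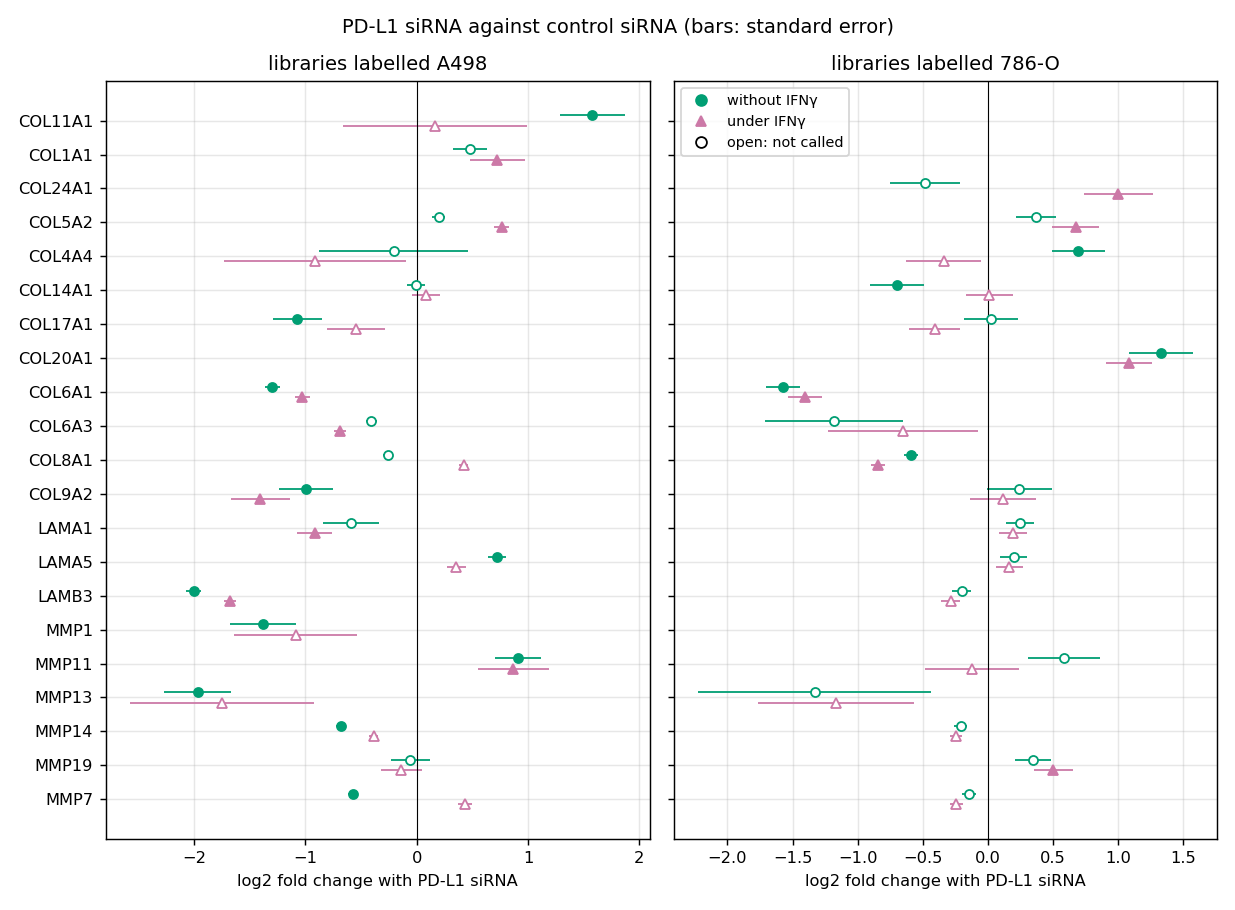
Log2 fold change with PD-L1si against Cnsi (bars SE, 3 libraries per group) for 21 members called in at least 1 of the 4 comparisons with a mean of at least 1 CPM, circles without IFNγ and triangles under IFNγ. Filled symbols passed the threshold and open ones did not. *COL6A1* lies left of 0 with filled symbols in both panels, *LAMB3* in the A498 panel only.

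*COL6A1* encodes a chain of the microfibrillar collagen VI (chr21:45981770-46005050). In A498 it was at 44.8, 46.1 and 45.7 CPM in Cnsi against 17.8, 18.1 and 19.7 in PD-L1si, 2.46-fold lower (-1.30, SE 0.0654, adjusted p = 7.85e-18), and at 50.2, 41.6 and 46.8 in Cnsi IFNγ against 24.3, 20.5 and 22.9 in PD-L1si IFNγ (-1.03, SE 0.0663, adjusted p = 7e-15). In 786-O it was at 391, 400.0 and 400.5 against 143, 122 and 135, 2.98-fold lower (-1.58, SE 0.131, adjusted p = 4.39e-05), and under IFNγ at 328, 485 and 459 against 165, 162 and 154 (-1.40, SE 0.130, adjusted p = 0.000102, or -1.56 without Cnsi IFNγ replicate 1). Every PD-L1si library was below every Cnsi library of its line, whether or not IFNγ was given. The effect under IFNγ did not pass as different between the lines (-0.36, adjusted p = 0.167, between -0.52 and -0.25 with each library left out and called without 786-O Cnsi IFNγ replicate 1).

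Both partner chains were also below their controls in A498, with 1 of these 4 values called. *COL6A2* was at 97, 106 and 103 CPM in A498 Cnsi against 83.2, 81.7 and 77.7 in PD-L1si (-0.34). Under IFNγ it was at 228, 201 and 219 against 163, 159 and 146 (-0.47, between -0.52 and -0.42 with each library left out, and called without Cnsi IFNγ replicate 2 or PD-L1si IFNγ replicate 1). The 786-O libraries were at 495, 525 and 525 against 522, 472 and 538 without IFNγ (-0.01), and its value under IFNγ was 0.03, or -0.07 without Cnsi IFNγ replicate 1. *COL6A3* fell in A498 under IFNγ, from 62.5, 61.3 and 63.8 to 40.7, 39.0 and 36.6 (-0.69, adjusted p = 1.53e-12), and was at -0.41 without it.

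*LAMB3* showed the largest fall among the members called in A498. It was at 42.3, 47.0 and 46.9 CPM in Cnsi against 11.2, 12.1 and 10.6 in PD-L1si, 4.01-fold lower (-2.01, SE 0.0646, adjusted p = 5.26e-23), and at 83.3, 80.7 and 87.5 against 27.7, 24.8 and 25.7 under IFNγ, 3.20-fold lower (-1.68, SE 0.0567, adjusted p = 2.36e-22). IFNγ still raised it in PD-L1si cells. In 786-O it was at 152, 147 and 156 against 133, 130.4 and 132 (-0.20), and under IFNγ at 111, 146 and 143 against 108, 113 and 108 (-0.29), so the lines differed by 1.40 under IFNγ (adjusted p = 9.62e-13). *LAMA3*, its partner, was at 198, 187 and 201 CPM in PD-L1si against 178, 184 and 176 in Cnsi in A498 under IFNγ (0.12). *LAMA5* rose in A498 without IFNγ, from 118, 123 and 144 to 224, 202 and 207 CPM (0.72), and *LAMA1* fell under IFNγ to 1.70, 2.22 and 2.13 CPM (-0.92).

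Among fibrillar collagens, *COL5A2* was at 15.9, 16.6 and 17.4 CPM in A498 Cnsi IFNγ and at 27.3, 29.7 and 27.6 in PD-L1si IFNγ (0.76, SE 0.0647, adjusted p = 7.06e-12). In 786-O it was at 1.5, 2.22 and 2.96 against 3.64, 3.58 and 3.35 (0.67, SE 0.179, adjusted p = 0.0116), a call lost without Cnsi IFNγ replicate 1, the library that stood apart (0.45). *COL1A1* in A498 was higher under IFNγ (0.72), a call lost without replicate 1 or 3 of either IFNγ group (0.62 to 0.72), and *COL11A1* was higher without IFNγ (1.58). *COL24A1* in 786-O was higher under IFNγ (1.00), but not without PD-L1si IFNγ replicate 1 (0.89).

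Of the other collagens, *COL8A1* was lower with PD-L1si in 786-O in both conditions, from 40.0, 40.5 and 39.0 to 24.9, 26.9 and 27.4 CPM (-0.59) and under IFNγ from 96.1, 90.2 and 88.5 to 50.2, 53.2 and 49.6 (-0.84, adjusted p = 3.12e-11). In A498 it was at 98.3, 104 and 97.6 against 136, 134 and 132 under IFNγ (0.42, not called), and the lines differed by -1.26 (adjusted p = 3.62e-17). *COL20A1* in 786-O was higher in both conditions, at 2.01, 1.18 and 1.87 CPM in PD-L1si (1.33) and at 4.87, 4.41 and 4.00 in PD-L1si IFNγ (1.08). *COL9A2*, a chain of collagen IX, was lower in A498 in both (-0.99 and -1.41). *COL14A1* and *COL4A4* were called in 786-O without IFNγ (-0.70 and 0.69), and each call was lost without PD-L1si replicate 1 or 3 or Cnsi replicate 3, the latter also without Cnsi replicate 1, at -0.74 to -0.55 and 0.57 to 0.71. *COL17A1* was lower in A498 without IFNγ (-1.07).

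Among the MMPs, *MMP13* and *MMP1* were lower with PD-L1si in A498 without IFNγ, at 0.317, 0.547 and 0.570 CPM (-1.97) and at 0.282, 0.674 and 0.356 CPM (-1.38). *MMP14* fell from 574, 587 and 586 to 367, 370.4 and 351 CPM (-0.68, adjusted p = 1.27e-15), with -0.39 under IFNγ, and *MMP7* from 105, 109.6 and 105 to 70.7, 74.4 and 69.9 (-0.57). *MMP11*, stromelysin-3, was higher with PD-L1si in A498 in both conditions (0.91 and 0.87), the latter call lost without Cnsi IFNγ replicate 1 or 2 or PD-L1si IFNγ replicate 2 (0.83, 0.78 and 0.65). *MMP19* in 786-O lay at the fold threshold under IFNγ, at 4.34, 4.25 and 4.26 against 6.14, 5.93 and 6.13 CPM (0.50, adjusted p = 0.0257). Its call was lost when any 1 library of the groups compared was left out (0.49 to 0.52). Neither *TIMP1* nor *TIMP2* was called in the 4 comparisons, the value furthest from 0 being -0.35 for *TIMP2* in A498 without IFNγ.

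The interaction asks whether the IFNγ effect itself differed with PD-L1si, and a positive value means that IFNγ moved the gene further up, or less far down, in PD-L1si than in Cnsi cells. In A498 it was called for 4 members and positive in each, beside 2.45% of all genes (1.81% positive and 0.645% negative). *MMP7* changed by -2.77 with IFNγ in Cnsi and by -1.76 in PD-L1si, an interaction of 1.01 (SE 0.0779, adjusted p = 1.59e-11). *COL8A1* changed by -1.55 and -0.87, with 0.68 (adjusted p = 1.11e-10), and *COL5A2* by -0.87 and -0.30, with 0.57 (adjusted p = 1.46e-05). *COL12A1*, a fibril-associated collagen, changed by -0.31 and 0.44, with 0.75 (adjusted p = 0.00396), at 3.81 to 6.73 CPM under IFNγ. *FN1* had a small negative value (-0.18, adjusted p = 0.0273). In 786-O edgeR called 0 of 63 members, with 4 at an unadjusted p under 0.05, DESeq2 called 0, and 0.099% of all genes were called (0.0377% positive and 0.0613% negative). Whether the interactions differ between the lines was not tested.

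The IFNγ effect in Cnsi cells differed between the lines for 20 of the 51 members tested in both, 14 with a more positive value in 786-O and 6 with a more negative one, beside 15.1% and 13.2% of all genes, 28.4% in all (27.5% and 11.8% of the members). The PD-L1si effect under IFNγ differed for 7, with 5 and 2, beside 2.96% and 2.64%, 5.6% in all (9.80% and 3.92%). The former include *MMP13* (4.42) and *COL28A1* (1.41) besides the genes above. Both differences share the Cnsi IFNγ libraries, so the same member can be called in each through these: *COL8A1*, *MMP7*, *COL6A2*, *COL16A1*, *LAMA1* and *LAMB3* were. In total 12 members, among them *MMP3*, *MMP8*, *MMP10*, *COL2A1*, *COL10A1* and *COL15A1*, were tested in neither line. They had at most 19 counts over the libraries of a line, and *TIMP3* is 1 of them. *MMP23B*, also among them, is near-identical to a second gene copy, so its reads may be split.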

How the data were processed

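Per the labels and the methods, the authors isolated poly(A) RNA, prepared stranded libraries (TruSeq), trimmed reads with Trimmomatic 0.36.6 after bcl2fastq 2.19.0, aligned them to GRCh38 with HISAT2 2.1.0 and counted them per gene with featureCounts 1.6.3 against GENCODE 33, using strand. They deposited raw counts per gene for 24 libraries, 3 per group, and nothing says whether these were separate cultures, so p-values measure the spread between libraries, which may be technical.

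Symbols came from GENCODE 44 by Ensembl identifier (39148 of 39321 rows matched). Genes were kept where the counts of any group added up to 10 or more, and these were fitted by line with edgeR 4.0.16 (TMM scaling, quasi-likelihood test, 1 mean per group, R 4.3.3), which gave 20916 genes in A498 and 21209 in 786-O. Differences between the lines came from 1 model of all 24 libraries over the 17999 genes that passed in both. P-values were adjusted by Benjamini-Hochberg over all genes of a fit. The fits were also run on simulated counts with the same small spread for every gene and no library that stands apart. That check does not cover the spread of these libraries. The alternatives were DESeq2 1.42.0, its scaling, other filters and thresholds, the replicate block, and each library left out. A fold against a group with 0 counts is a bound at 3 counts over that group.

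Members and lists were chosen with earlier results of these data known. Described in full were *FN1*, the collagen IV chains, laminin-332 and laminin-511, the TIMPs and, per comparison and line, the 3 higher and 3 lower called members with the largest change and a group mean of at least 1 CPM. An item this rule covers is not reported here. Others are named where they were counted, were listed at 0 or ended a range. Same-numbered libraries of a line had a mean correlation of deviations of 0.04 in A498 and 0.02 in 786-O, not over 0.1 in every pair, so the numbers were not taken to pair the libraries. Promoters of 26 members were not analysed here, among them *MMP25*, *COL6A1*, *COL8A1* and *MMP2*.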

Additional observations from a re-analysis of the deposited data

Results flagged for a closer look

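The results here are differences between effects that passed the test of the difference itself (edgeR, quasi-likelihood, Benjamini-Hochberg adjusted). The siRNA by IFNγ interaction in A498 was 1.01 for *MMP7*, 0.75 for *COL12A1*, 0.68 for *COL8A1* and 0.57 for *COL5A2*, each with a less negative or more positive IFNγ effect in PD-L1si cells. In 786-O the corresponding values did not pass the test, and the difference between the lines was not tested.

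For the IFNγ effect in Cnsi cells, given as 786-O minus A498, the value was 3.40 for *MMP7*, 2.74 for *COL8A1*, 2.66 for *MMP2*, 1.89 for *COL14A1*, 1.36 for *MMP15*, 1.15 for *COL17A1*, 1.09 for *COL11A2* and 0.52 for *TIMP1*. It was -1.997 for *LAMA1*, -1.10 for *COL16A1*, -1.07 for *LAMB3*, -0.91 for *LAMB2*, -0.80 for *MMP25* and -0.77 for *COL6A2*. The calls of *MMP25*, *COL11A2* and *TIMP1* were lost without any 1 of 9, 7 and 3 libraries, where their values ran from -0.88 to -0.66, from 0.81 to 1.13 and from 0.49 to 0.50.

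For the PD-L1si effect under IFNγ, again 786-O minus A498, the value was 1.54 for *COL9A2*, 1.40 for *LAMB3*, 1.13 for *LAMA1*, 0.82 for *COL16A1* and 0.51 for *COL6A2*, and it was -1.26 for *COL8A1* and -0.67 for *MMP7*. The call of *COL6A2* was lost without any 1 of 4 libraries (0.41 to 0.49). *CD274* itself fell further in A498 than in 786-O with the siRNA under IFNγ (-2.81 and -0.94, a difference of 1.87), and its part in these differences was not tested. Line and sequencer cannot be told apart in any of them.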

How the results depend on the processing

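None of the 164 member values that were called changed sign in any refit, while 149 of the 548 not called did in at least 1, without being called there. With each library left out, the members called ranged from 28 to 32 for IFNγ in Cnsi, 26 to 29 in PD-L1si, 8 to 10 for PD-L1si under IFNγ, 11 to 13 without and 4 to 5 for the interaction in A498, and from 15 to 20, 22 to 25, 4 to 6, 3 to 7 and 0 to 0 in 786-O. The 3 arose without Cnsi replicate 3 or PD-L1si replicate 3, and the 7 without PD-L1si replicate 2. Line differences ranged from 18 to 21 and 6 to 8. With the adjusted p alone, the counts became 26 (PD-L1si under IFNγ), 25 (without) and 12 (interaction) in A498, and 28 (IFNγ in Cnsi), 15 and 11 (PD-L1si under and without IFNγ) in 786-O. With a log2 fold change over 1 they were 3, 6 and 1 in A498 and 11, 14, 3 and 2 in 786-O for IFNγ in Cnsi, IFNγ in PD-L1si, PD-L1si under and PD-L1si without IFNγ, and 4 for the line difference of PD-L1si under IFNγ. DESeq2 called 3 members for PD-L1si without IFNγ in 786-O. These thresholds admit more or fewer members by construction. Over 288 values of single members, DESeq2 ended 11 calls and added 3. The scaling of DESeq2 in edgeR ended 3 and added 2, and dropping the filter ended 5 and added 2. Among the calls that DESeq2 ended were *COL17A1*, *LAMC1*, *MMP21* and *TIMP4* with IFNγ in Cnsi cells of A498. Others were *COL1A1* with PD-L1si under IFNγ in A498, and in 786-O *COL24A1* under IFNγ and *COL4A4* and *COL14A1* without it. Another scaling moved the median of all genes by at most 0.05 (log2).

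With the replicate block, 18 members were called for IFNγ in Cnsi in 786-O (10 higher, 8 lower) and 32 in A498, and the block ended 1 call, *COL4A1* with IFNγ in 786-O (0.54). Without 786-O Cnsi IFNγ replicate 1 the counts in 786-O were 19, 25, 4 and 5 for the 4 comparisons in the order above. Members under about 1 CPM rest on few counts, and small changes in them were not detectable at this depth.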

Other observations

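Other genes of the matrix, in lists chosen with earlier results of these data known, are given as values for IFNγ in Cnsi cells, from the same fits as the members, where 36.8% of all genes were called in A498 and 18.5% in 786-O. Of the genes for collagen synthesis, folding and cross-linking, 2 were higher and 7 lower of 24 tested in A498 (median -0.21), and 1 was higher and 6 lower of 23 in 786-O (median -0.31). The lysyl oxidase relative *LOXL1* fell in both lines (-0.82 and -0.69), as did the procollagen protease enhancer *PCOLCE2* (-0.77 and -0.65) and the procollagen N-protease *ADAMTS3* (-1.14 and -0.56), while the related *ADAMTS14* rose (1.86 and 1.57). In 786-O *LOX* and the collagen lysyl hydroxylase *PLOD2* also fell (-1.16 and -0.87).

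Of the other matrix glycoproteins and proteoglycans, 8 were higher and 8 lower of 29 in A498 and 2 higher and 4 lower of 28 in 786-O. Tenascin-C, *TNC*, rose in both lines (2.02 and 1.62) and the matrilin *MATN2* fell in both (-1.83 and -0.91). *LUM* and *VCAN*, proteoglycan genes of connective tissue, fell in A498 (-2.47 and -2.11), where *CCN2* rose (2.02), and *LTBP1*, which binds latent TGF-β, fell in 786-O (-1.10).

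Among matrix receptors, 4 were higher and 10 lower of 25 in A498 and 4 higher and 3 lower of 23 in 786-O. The collagen receptor *DDR2* rose in both lines (2.96 and 3.94) and the syndecan *SDC2* fell in both (-1.31 and -0.87), while the laminin receptor chains *ITGA6* (2.70 and 0.78) and *ITGA3* (0.63 and 0.84) rose in both. Of other proteases and inhibitors, 4 were higher and 7 lower of 22 in A498 and 3 higher and 5 lower of 19 in 786-O, with *ADAMTS15* (-2.82 and -1.88) and *HTRA1* (-0.99 and -0.97) lower and the urokinase receptor *PLAUR* (0.92 and 0.90) higher in both. Of 15 genes of the TGF-β pathway, 1 was higher and 2 lower in A498, and 0 were higher and 2 lower of 14 in 786-O, with the activin chain gene *INHBA* higher in A498 (1.49) and lower in 786-O (-0.91).

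With PD-L1si under IFNγ, *ADAMTS15* was higher in A498 (2.26) and in 786-O (0.56). In A498 the integrin chain *ITGB8* (1.08) and *LUM* (0.83) were higher and *CD44* (-0.84) and *LTBP1* (-0.77) lower, and in 786-O *TFPI2* (0.59), an inhibitor of serine proteases, was higher.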
